A study of Homo sapiens with 4 samples.

Results

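The genes described here are 10 partners and downstream genes of the HOXA program that the fusion protein MLL-AF9 maintains in leukemic cells: MEIS1, PBX3, MEF2C, MYB, MYC, MLLT3, MEN1, ZEB2, EYA1 and BMI1. They are 10 of 27193 gene names on the array and were chosen by name, with earlier results of these data known. They are measured by the 18 of 34127 non-control probes that carry one of these names in the scanner files. RNA came from THP1, a human monoblastic acute myeloid leukemia cell line that carries MLL-AF9, so the fusion gene was present under both treatments. One group was transfected with 30 nM of hsa-miR-511-5p mimic, a synthetic precursor that supplies the mature miRNA to the cell, and the other with 30 nM of the negative control #1 mimic, and both were harvested on day 2. Each of 2 independent experiments gave 1 array per treatment, which makes 4 single-dye Agilent arrays, 2 per group, and a single cell line is the whole basis of the comparison. For any one probe, the smallest p that an exact permutation test (two-sided) can reach with so few arrays is 0.333.

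MLL, also named KMT2A, is a histone methyltransferase that keeps HOXA genes active during blood development, and menin, the product of MEN1, tethers it to chromatin. AF9, the product of MLLT3, recruits the transcription elongation machinery and DOT1L. In the fusion protein both activities are joined, and HOXA proteins then act together with the homeodomain cofactors MEIS1 and PBX3, while MYB, MYC, MEF2C, ZEB2, EYA1 and BMI1 are known as transcription factors or chromatin proteins that this leukemia uses or depends on. The question that the mimic comparison addresses for these genes is whether supplying miR-511 altered their transcripts in cells that carry the fusion.

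The miRNA that distinguished the treatments is shown here, and each difference below is against the control mimic. Its mature sequence, from RefSeq (GRCh38.p14), lies at chr10:17845122-17845142 on the plus strand, and the capitals mark the seed, bases 2 to 8, which pairs with target transcripts.
hsa-miR-511-5p: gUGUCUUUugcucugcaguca
The DNA match of this seed, AAAGACA, was searched in the 60 bases of each probe as written in the files. It occurred in 0 of the 18 member probes and in 0.970% of all 34127 probes. This says only that these letters are not in the measured windows.

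The cells carried the transcripts of their type. All 12 monocytic marker genes with a probe, among them CD33, CSF1R, SPI1 and MPO, were well above background on all 4 arrays, and LYZ and FCGR1A had no probe of that name. EPCAM, KRT19, COL1A1, GATA1 and MS4A1, which mark epithelial cells, fibroblasts, erythroid cells and B cells, were well above background on no array. They are 5 of 12 markers of other cell types, and of the rest 6 were well above background on all 4 arrays and 1 on 3, among them the B cell marker CD79A and the T cell marker CD3D. The share of probes in this class was 64.8% to 69.3% by array and lowest for the miR-511 array of experiment 1. On that array the copies of probes printed 10 times also spread most, with a median standard deviation (SD) of 0.10 on the log2 scale, against 0.051 to 0.078 on the other arrays. Probe levels are given as log2 intensities after quantile normalization, and levels of different probes cannot be set against each other. As whole cultures were measured, fewer expressing cells and less RNA per cell cannot be told apart.

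None of the tested partner probes passed the test of a difference between the mimics. Of the 18 probes, 14 probes of 9 genes were well above background on all 4 arrays, as 63.4% of all probes were, and these were tested. Of the 4 others, 3 were well above background on no array, as 28.8% of all probes were, and 1 in experiment 1 alone. By limma without a term for the experiment, 0 of these 14 had an unadjusted p below 0.05, which is the first of the conditions in the study's methods (the other, a test over identical replicate probes, was not applied), where 2.2% of all 22638 tested probes had one (1.27% higher and 0.932% lower with miR-511 mimic). The smallest unadjusted p among them was 0.240. With the experiment number as a block, 0 of the 14 and 3.95% of all tested probes passed. After Benjamini-Hochberg adjustment over all tested probes 0 passed, among the 14 and in the whole set. Over all 22638 tested probes, the log2 differences of experiments 1 and 2 correlated at only 0.038. At these shares, a count of 0 among 14 probes does not set the partners apart from other probes. Their log2 differences, miR-511 mimic minus control mimic, lay between -0.28 and 0.15, with 7 above and 7 below 0. The median was 0.019, beside 0.0098 over all tested probes. All 14 intervals (95%) of the difference held 0, and 13 of them left out a 2-fold change in either direction. The exception was EYA1.

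**Figure D1:**
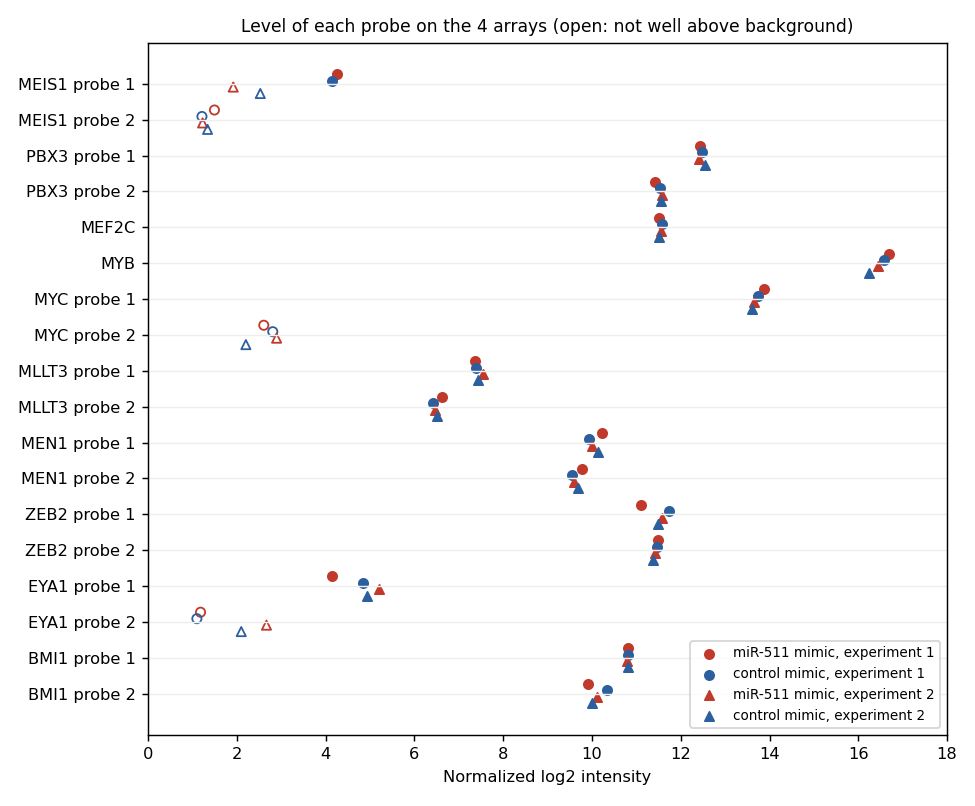
Normalized log2 intensity of each of the 18 probes on the 4 arrays, with circles for experiment 1, triangles for experiment 2, red for miR-511 mimic and blue for control mimic. Open symbols are values not well above background, which hold for all arrays of 3 probes and for the experiment 2 arrays of MEIS1 probe 1, and the levels of different probes are not comparable.

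MEIS1, a homeodomain cofactor that binds DNA together with HOX and PBX proteins, was at the limit of detection. Its probe 1 spans positions 66799326 to 66799385 of chromosome 2 (hg19). There the log2 intensity was 4.25 with miR-511 mimic and 4.14 with control mimic in experiment 1, both well above background. In experiment 2 the values were 1.92 and 2.53, neither well above background. The detection of MEIS1 by this probe thus followed the experiment and not the mimic. Taking the lowest signal of any detected probe as the level on the dim arrays, probe 1 was 1.795-fold higher in experiment 1 than in experiment 2. This is a description with no test, and it rests on that assumption and on this probe alone. Such a pattern, detection on both arrays of experiment 1 and neither of experiment 2, was found for 95 of the 34127 probes (0.278%), and the reverse for 65 (0.190%). The second probe, 131962 bases upstream and named by another accession, was well above background on no array, with values between 1.21 and 1.49. No difference between mimics was tested for MEIS1, since neither treatment was detected on both of its arrays.

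PBX3, which stabilizes HOXA9 on DNA as a second homeodomain cofactor, was measured by a pair of probes on chromosome 9 that lie 638 bases apart. Probe 1, from 128728847 to 128728906, gave 12.43 and 12.40 with miR-511 mimic and 12.48 and 12.54 with control mimic in experiments 1 and 2. Both miR-511 values lay below both control values, so the groups did not overlap, as held for 2 of the 14 member probes, both lower with miR-511 mimic, and for 25.7% of all tested probes (10.1% of all tested probes with the miR-511 mimic values lower). The log2 difference was -0.096 (standard error 0.091), and its interval ran from -0.34 to 0.15, which is a fold of 0.788 to 1.11. Probe 2, from 128728209 to 128728268, had 11.41 and 11.57 with miR-511 mimic against 11.53 and 11.56 with control mimic. Its groups overlapped, and its difference of -0.054 (standard error 0.11) had a fold interval of 0.789 to 1.18.

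MLLT3 codes for AF9 itself, and both of its probes are named by one MLLT3 transcript. Whether they also bind the fusion transcript was not tested. At probe 1, on chromosome 9 from 20346480 to 20346539, the values were 7.37 and 7.55 with miR-511 mimic and 7.38 and 7.43 with control mimic. Its difference was 0.057 (standard error 0.11). At probe 2, from 20345191 to 20345250, they were 6.62 and 6.45 against 6.42 and 6.52, with a difference of 0.066 (standard error 0.11). At both probes the sign of the difference changed between the experiments, but in opposite directions. In experiments 1 and 2 it was -0.0061 and 0.12 at probe 1, and 0.195 and -0.063 at probe 2. The fold intervals over both experiments, 0.844 to 1.28 and 0.850 to 1.29, were close to each other.

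MEN1, whose product menin links MLL and its fusions to target genes, had probes 246 bases apart on chromosome 11. Probe 1, from 64571562 to 64571621, measured 10.22 with miR-511 mimic and 9.92 with control mimic in experiment 1, and 10.001 and 10.14 in experiment 2. The log2 difference between mimics was thus 0.30 in experiment 1 and -0.14 in experiment 2. Probe 2, from 64571808 to 64571867, measured 9.77 and 9.55 in experiment 1 and 9.59 and 9.67 in experiment 2. It moved in the same way as probe 1, with differences of 0.22 and -0.084. Over both experiments the differences were 0.080 (standard error 0.14) and 0.068 (standard error 0.12), and the intervals of -0.31 to 0.47 and -0.25 to 0.39 held 0.

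**Figure D2:**
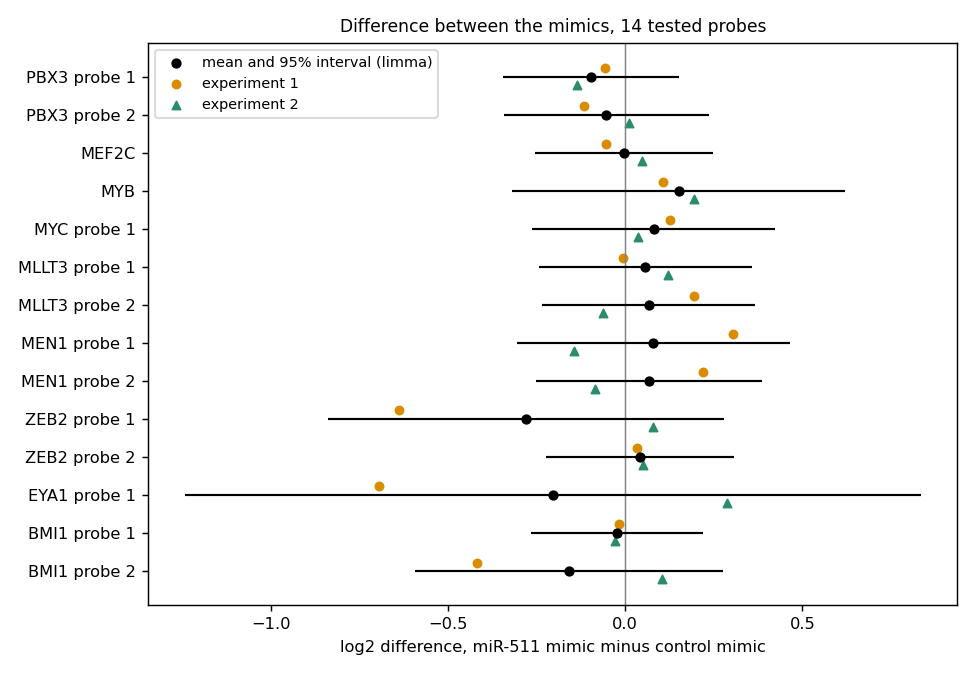
log2 difference, miR-511 mimic minus control mimic, of the 14 tested probes, with the mean and its 95% interval from limma in black, experiment 1 as orange circles and experiment 2 as green triangles. Every interval holds 0, and the experiments lie on the same side of 0 for 5 of the 14 probes.

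MYB, a transcription factor that keeps blood progenitors proliferating and is required by MLL-AF9 leukemia, has 1 probe, on chromosome 6 from 135540223 to 135540282. It gave 16.69 and 16.44 with miR-511 mimic and 16.58 and 16.24 with control mimic. Both arrays of experiment 1 were above both arrays of experiment 2, by 0.25 with miR-511 mimic and by 0.34 with control mimic. The difference between mimics was 0.11 in experiment 1 and 0.19 in experiment 2, so it had the same sign in each. At 0.15 (standard error 0.17) it was the highest of the 14 differences, and its fold interval was 0.801 to 1.54. With the experiment number as a block the standard error fell to 0.081, and MYB still did not pass (unadjusted p = 0.161 from limma).

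MYC, which drives ribosome production and cell growth, was the only member whose probe was printed 10 times. This probe, on chromosome 8 from 128753268 to 128753327, gave mean values of 13.87 and 13.65 with miR-511 mimic and 13.74 and 13.61 with control mimic. Over the 10 copies on an array the SD was 0.027 to 0.065, while the SD between the arrays of a treatment was 0.16 with miR-511 mimic and 0.092 with control mimic. The difference between mimics was 0.13 in experiment 1 and 0.035 in experiment 2, and over both it was 0.080 (standard error 0.12) with a fold interval of 0.834 to 1.34. A second MYC probe from another accession, from 128748076 to 128748135, was well above background on no array, with values between 2.20 and 2.89.

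**Figure D3:**
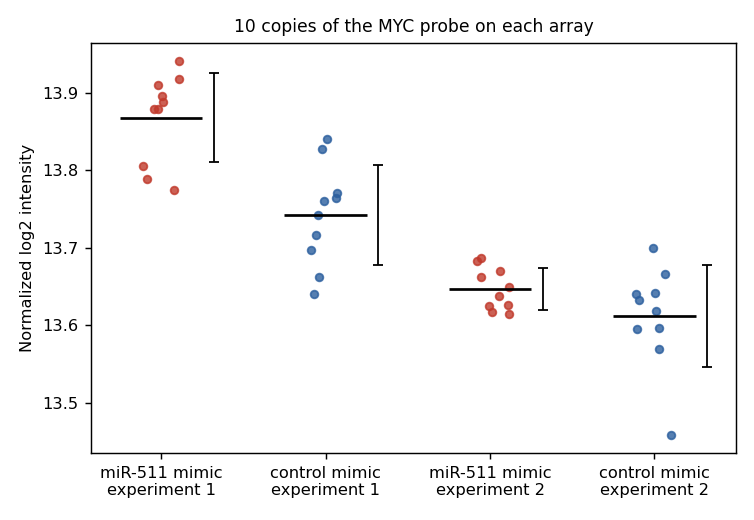
Normalized log2 intensity of the 10 copies of the MYC probe on each array, with the mean as a horizontal line and its SD over copies as an error bar beside the points (the axis does not start at 0). The means were 13.87 and 13.74 in experiment 1 and 13.65 and 13.61 in experiment 2, and within each experiment the miR-511 mean was the higher one.

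MEF2C, a MADS box transcription factor that is a known target of MLL fusions in myeloid progenitors, has 1 probe, on chromosome 5 from 88016817 to 88016876. Its values were 11.51 and 11.55 with miR-511 mimic and 11.57 and 11.50 with control mimic. These 4 values overlapped between the groups. The log2 difference was -0.0033 (standard error 0.092), the closest to 0 among the 14, and the fold interval of 0.838 to 1.19 left out a 2-fold change. Its sign depended on the processing: it was 0.0091 with 75th percentile scaling and 0.060 after normexp background correction.

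ZEB2, a zinc finger transcription factor that acts mainly as a repressor, was measured at sites 36102 bases apart on chromosome 2, and these gave different pictures. Probe 1, from 145182363 to 145182422, had 11.10 with miR-511 mimic against 11.73 with control mimic in experiment 1, and 11.57 against 11.49 in experiment 2. The miR-511 array of experiment 1 alone was low. Its difference of -0.28 (standard error 0.20) was the lowest of the 14, with a fold interval of 0.559 to 1.21. Without miR-511 mimic replicate 2, which leaves the low array as the only one of its treatment, it was -0.52 and had an unadjusted p of 0.0465 from limma, and without miR-511 mimic replicate 1, the low array, it was -0.044. Probe 2, from 145146261 to 145146320, had 11.49 and 11.42 with miR-511 mimic and 11.46 and 11.37 with control mimic, a difference of 0.042 (standard error 0.097). At that probe the miR-511 array of experiment 1 was not low. Averaged over both experiments, ZEB2 was the exception among the 5 genes with a pair of tested probes. For the other 4, the averaged differences of both probes had the same sign. Within single experiments the probes of MLLT3 had opposite signs in each, and those of PBX3 and of BMI1 had opposite signs in experiment 2.

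EYA1, a phosphatase and cofactor of homeodomain transcription factors in development, was detected by probe 1 a little above the lowest well detected signals of the arrays (2.98 to 3.44), on chromosome 8 from 72110473 to 72110532. Its values were 4.15 with miR-511 mimic and 4.85 with control mimic in experiment 1, and 5.21 and 4.92 in experiment 2. The miR-511 arrays were both the lowest and the highest of the 4, with a difference of -0.69 in experiment 1 and 0.29 in experiment 2. Over both it was -0.20 (standard error 0.38), and the fold interval of 0.423 to 1.78 was the widest of all. The EYA1 interval thus reached past a 2-fold fall. After normexp background correction the difference was -0.0010 (standard error 0.11). Without miR-511 mimic replicate 2 the difference was -0.73 (unadjusted p = 0.00795 from limma), and without miR-511 mimic replicate 1 it was 0.33. The miR-511 array of experiment 1 was the lowest for ZEB2 probe 1, EYA1 probe 1, BMI1 probe 2, PBX3 probe 2 and MLLT3 probe 1. The same array was the highest of the 4 for MYB, MYC probe 1, MLLT3 probe 2, both MEN1 probes and ZEB2 probe 2. For MLLT3 probe 1 it was the lowest only narrowly, at 7.370 against 7.377 with control mimic in experiment 1. The other arrays and all tested probes were not counted in this way, so these lists do not set the array apart. The miR-511 array of experiment 1 had the fewest detected probes and the widest spread between copies. The part of its quality in these results was not tested. Probe 2 of EYA1, from 72111304 to 72111363, was well above background on no array.

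BMI1, a subunit of the Polycomb repressive complex 1 that sustains self-renewal, had the smallest standard error of the 14 at its probe 1. On chromosome 10 from 22619577 to 22619636, the values were 10.80 and 10.79 with miR-511 mimic and 10.82 and 10.82 with control mimic. The groups did not overlap, but the difference was -0.023 (standard error 0.088), a fold interval of 0.832 to 1.16. At probe 2, whose coordinates in the files run from 22617587 to 22617995, they were 9.92 and 10.11 with miR-511 mimic and 10.34 and 10.01 with control mimic. Here the difference was -0.42 in experiment 1 and 0.10 in experiment 2, and -0.16 (standard error 0.16) over both.

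Differences between the independent experiments were set beside the averaged difference between mimics. For 12 of the 14 probes, the mean size of the difference between experiments, taken within each treatment, was the larger one. This held for 74.3% of all tested probes. The measures are not alike, since the difference between mimics is averaged with its sign and shrinks where the experiments disagree. Whether experiments differed more than mimics did within an experiment is thus not shown. The median size over the 14 probes was 0.14 on the log2 scale between experiments and 0.074 for the averaged difference between mimics. The exceptions were PBX3 probe 1 and BMI1 probe 1, the probes whose groups did not overlap. With 2 arrays per treatment, this measure and the overlap of the groups are the same comparison by arithmetic. The count thus adds nothing to the overlap given above. The direction of the mimic difference was the same in both experiments for 5 of the 14 probes, beside 51% of all tested probes. These 5 were PBX3 probe 1, MYB, MYC, ZEB2 probe 2 and BMI1 probe 1. None of these shares was tested against the background.

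**Figure D4:**
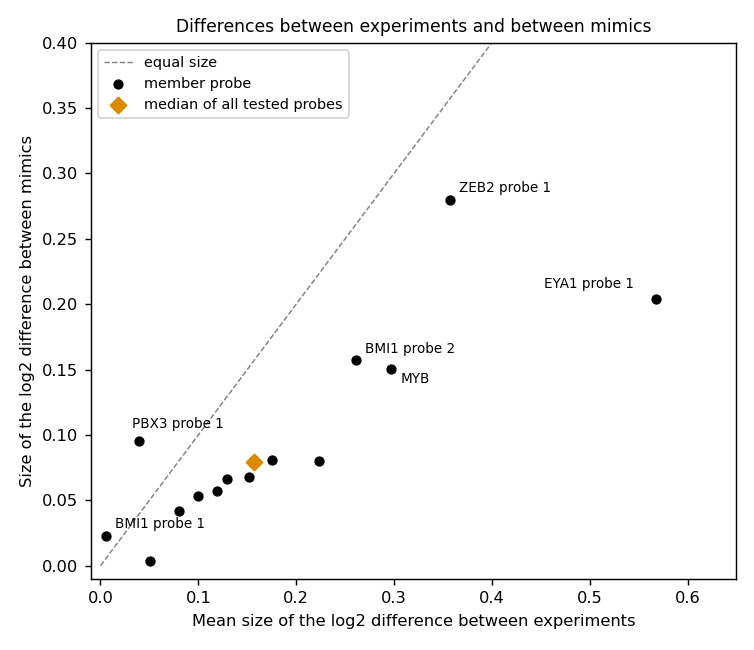
Size of the log2 difference between mimics (vertical) against the mean size of the log2 difference between experiments 1 and 2 within a treatment (horizontal) for the 14 tested probes, with the median of all tested probes as an orange diamond. The difference between mimics is averaged with its sign over both experiments, so it shrinks where they disagree and the axes are not like measures. Below the dashed line of equal size lie 12 probes, and PBX3 probe 1 and BMI1 probe 1, whose groups did not overlap, lie above it.

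A set of 8 lists with 118 genes covered the HOXA cluster, the MLL complex, the AF9 partners in elongation, the Polycomb partners of BMI1, the relatives of MEIS1 and PBX3, paralogs and dimer partners, other genes downstream of MLL fusions, and targets of MYC. Each gene was represented by its tested probe with the highest mean. Of 110 genes tested, 1 passed the unadjusted threshold, which is 0.909% beside 2.2% of all tested probes, and the median log2 difference was 0.0033. Among 9 tested HOXA genes 0 passed, with 4 above and 5 below 0. HOXA9, the best known target of MLL-AF9, had a difference of -0.10 (standard error 0.11) on chromosome 7 from 27202588 to 27202647, and HOXA10 had 0.042 (standard error 0.11) from 27211235 to 27211294. A second HOXA10 probe had -0.37 (standard error 0.29), which was -0.76 without miR-511 mimic replicate 2 (unadjusted p = 0.00719 from limma) and 0.026 without miR-511 mimic replicate 1.

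Each of the 8 listed MLL complex genes was tested, and their differences lay between -0.015 and 0.064. KMT2A, listed in the files as MLL, had 4 probes on chromosome 11. The one with the highest mean, from 118348856 to 118348915, gave 11.38 and 11.22 with miR-511 mimic and 11.20 and 11.42 with control mimic, a difference of -0.0091 (standard error 0.13). Another, with coordinates from 118361998 to 118362491, gave 4.08 and 4.29 with miR-511 mimic and 4.40 and 4.53 with control mimic. These values lay a little above the lowest well detected signals of the arrays (2.98 to 3.44). The probe's difference of -0.28 (standard error 0.12) did not pass, whereas it did with a block for the experiment (unadjusted p = 0.0407 and adjusted p = 0.969 from limma). With an intensity trend it did not pass (unadjusted p = 0.246 from limma). After normexp background correction the difference was -0.048.

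Among the 23 AF9 partners in elongation, which include DOT1L and the AFF and ELL proteins, 0 passed and the median was 0.029, with differences from -0.49 to 0.31. The ends of this range, AFF4 and CCNT1, named after their values were seen, passed with a block for the experiment (unadjusted p = 0.0455 and 0.0442 from limma), and another AFF4 probe had a difference of 0.11. Of the 15 Polycomb partners of BMI1 0 passed, with a median of 0.043. The lists of 8 tested MEIS1 and PBX3 relatives and of 19 tested paralogs and dimer partners had medians of -0.050 and -0.011, and 0 genes of either passed. For MYC, 0 of 16 target genes, among them NPM1, NCL, ODC1 and CDK4, passed, and the median was 0.018 with 10 above and 6 below 0.

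RUNX2, a runt domain transcription factor among the 13 other genes downstream of MLL fusions, was the gene that passed. On chromosome 6 from 45518216 to 45518275 its values were 4.01 and 3.98 with miR-511 mimic and 3.11 and 3.67 with control mimic. All of these lay near the lowest well detected signals of the arrays (2.98 to 3.44). Both miR-511 values were the higher ones, by 0.90 in experiment 1 and 0.31 in experiment 2. Its log2 difference was 0.61 (standard error 0.21), with an unadjusted p of 0.0441 and a Benjamini-Hochberg adjusted p of 1.00 by limma. After normexp background correction it was 0.072 and no longer passed. It was 0.33 without control mimic replicate 1 and 0.89 without control mimic replicate 2. Without miR-511 mimic replicate 1 or 2 it was 0.59 and 0.63. It also no longer passed without the filter on dim probes, with an intensity trend or in a plain comparison that takes the spread from this probe alone. It still passed with 75th percentile scaling, marked spots kept, the deposited values, the block, and with all 4 arrays required to be well above background. There the unadjusted p from limma ran from 0.0243 to 0.0491. A second RUNX2 probe was well above background on no array.

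**Figure D5:**
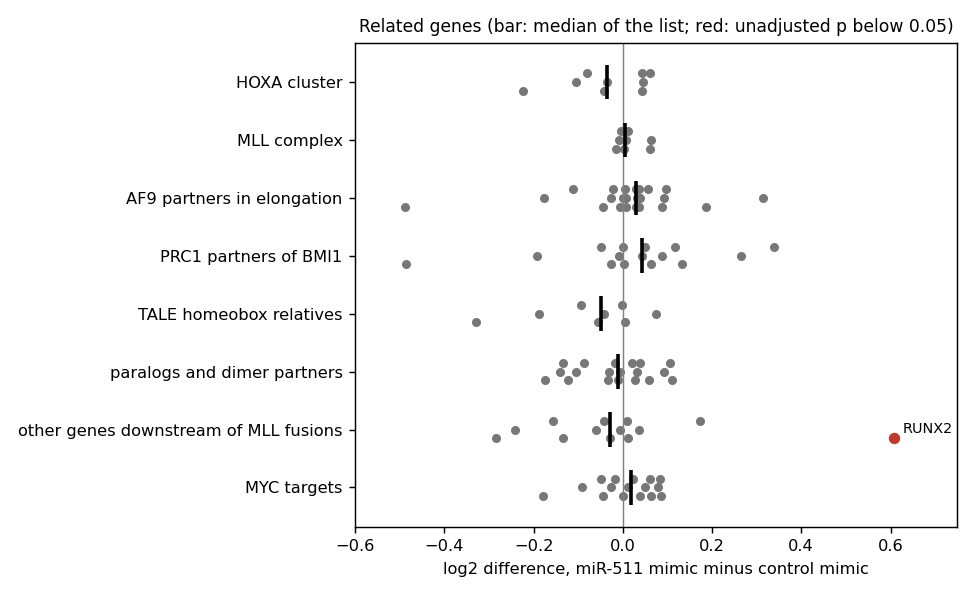
log2 difference, miR-511 mimic minus control mimic, of the tested genes of the 8 related lists, 1 point per gene, with the median of each list as a black bar and genes with an unadjusted p below 0.05 from limma in red. The medians lie between -0.050 and 0.043, and RUNX2 at 0.61 is the gene past the threshold.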

How the data were processed

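The authors had RNA of both treatments hybridized to Agilent Human Whole Genome Microarrays and deposited 1 scanner file per array. The processed intensity in these deposited files had its background subtracted and its spatial trend removed by Agilent Feature Extraction (version 10.7.3.1 per the file headers, 10.5.1.1 in the submitters' processing notes). Coordinates are hg19 as in the files. The authors also deposited a table of quantile normalized log2 values, used as an alternative.

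limma 3.58.1 was run in R 4.3.3. The log2 processed intensity of 43118 non-control spots was quantile normalized without 232 to 301 spots per array marked as outliers, and replicate spots were then averaged by probe. A probe was well above background where over 50% of its spots were. Testing required a value on every array and, for 1 treatment or both, detection well above background on each of its arrays. lmFit and eBayes compared treatments without a block, as the methods name none, and p-values are two-sided. No spot was saturated, and all arrays were on 1 slide, so no slide block was run. The number of arrays limits the precision. The functions were tested on simulated data.

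Labels place each array in experiment 1 or 2, which pairs the arrays; deviations of arrays of the same experiment correlated at 0.271 over 22638 probes. Names of 16 of the 18 probes matched RefSeq by accession. Where in a transcript a probe lies was not analysed here. All probes of the member genes are named, numbered by mean level, and of the related lists KMT2A, HOXA9, HOXA10 and genes past the unadjusted threshold. No genes were ranked by likeness, since 4 arrays allow no correlation across samples. Members and lists were chosen with earlier results of these data known. Alternatives were 75th percentile scaling, normexp (offset 50), no filter or a stricter one, marked spots kept, the deposited table, the block, an intensity trend, a plain equal-variance comparison of each probe, and leaving out each array.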

Additional observations from a re-analysis of the deposited data

How the results depend on the processing

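Of the 14 tested member probes 0 passed the unadjusted threshold of limma under the 9 alternatives that kept all arrays, and 0 passed adjustment under any. The replicate block changed no call among them. MEF2C changed sign, to 0.0091 with 75th percentile scaling and 0.060 after normexp correction. With each array left out in turn, where a lone array is assumed to vary like the other treatment, 0 to 2 member probes passed, the 2 being ZEB2 probe 1 and EYA1 without miR-511 mimic replicate 2, and the median over members lay between -0.021 and 0.0046. The difference then lay between -0.14 and 0.028 for PBX3 probe 2, -0.037 and 0.030 for MEF2C, -0.019 and 0.32 for MYB, -0.030 and 0.19 for MYC, -0.034 and 0.15 for MLLT3 probe 1, -0.016 and 0.15 for MLLT3 probe 2, -0.032 and 0.19 for MEN1 probe 1, -0.021 and 0.16 for MEN1 probe 2, -0.52 and -0.044 for ZEB2 probe 1, -0.0027 and 0.086 for ZEB2 probe 2, -0.73 and 0.33 for EYA1 and -0.32 and 0.0052 for BMI1 probe 2.

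Of all tested probes, 498 passed, against 265 after normexp correction, 1029 without the filter on dim probes, 894 with the replicate block, 285 with an intensity trend and 709 to 1440 with an array left out. The lower ones made up 42.4% of them, 54.8% with 75th percentile scaling, 32.8% when all 4 arrays had to be well above background, 70.1% without miR-511 mimic replicate 2 and 59.4% without control mimic replicate 2. Of the related genes, 1 passed, against 2 with 75th percentile scaling, 2 when all 4 arrays had to be well above background, 3 with the replicate block (RUNX2, AFF4 and CCNT1), 5 in the plain comparison and 0 to 7 with an array left out. One KMT2A probe at -0.016 changed sign to 0.0049 after normexp correction. With an array left out, HOXA10 lay between -0.055 and 0.14 at its probe 1 and between -0.76 and 0.026 at its probe 2, and KMT2A between -0.12 and 0.10 at its probe 1 and between -0.14 and 0.11 at the probe just named. What caused these shifts was not tested.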
